A study of Mus musculus with 10 samples.

Results

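The nucleotide synthesis enzymes examined here were 9 genes, chosen by name from 54838 genes listed in the expression tables of mouse jejunal crypts. They comprised the deoxynucleotide enzymes Rrm1, Rrm2, Tyms, Tk1 and Dut, the pyrimidine enzymes Cad and Umps, and the purine enzymes Ppat and Impdh2. All 9 were matched by symbol and all 9 passed the filter on low counts in a table of 14719 tested genes. Polyadenylated RNA of crypts was sequenced from 5 WT mice and 5 mice with a conditional deletion of Arid3a in the intestinal epithelium (Arid3a cKO), 1 library per animal. The cKO mice carried Villin Cre-ERT2+/- and Arid3a fl/fl, so that the Villin promoter drove a tamoxifen-dependent Cre recombinase in epithelial cells and other cells of the mucosa kept the gene. Both groups received tamoxifen on 3 days and were killed 1 month after the first injection. The labels do not say whether the WT mice carried Cre or floxed alleles, and do not give the age of the animals. The identifiers of the WT and cKO animals came from separate series, so a difference tied to the series cannot be told apart from genotype.

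Cells obtain the building blocks of DNA and RNA by making rings of purines and pyrimidines from small precursors, or by recovering bases and nucleosides that are already formed. Ribonucleotide reductase then removes an oxygen from ribonucleotides to give deoxyribonucleotides, and thymidylate synthase adds the methyl group that distinguishes thymine from uracil. Several of these enzymes, among them RRM2, TYMS and TK1, are known to be more abundant in dividing cells than in resting cells, and crypts are the part of the intestinal epithelium in which cells divide, whereas the cells of the villus do not.

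The mRNA of each of the 9 enzymes was less abundant in Arid3a cKO than in WT crypts. All 9 passed an adjusted p of 0.05 (edgeR quasi-likelihood test with Benjamini-Hochberg adjustment over all tested genes). Of all tested genes, 12.7% were called lower and 15.6% higher. The 9 were chosen with earlier results of these data known, so their count against this background is not an independent test. The log2 fold changes lay between −0.62 for Cad and −0.29 for Impdh2 with a median of −0.45, whereas the median over all tested genes was −0.03. In 7 of the 9 every cKO library lay below every WT library, as in 7.62% of all tested genes, while Tk1 and Umps overlapped between the groups. In an alternative fit with 1 surrogate variable, a term estimated from the data for variation that the labels do not name, 3 of the 9 passed (Rrm1, Tyms and Dut) and 1.87% of all tested genes were called lower. Outside the 9, all 5 other genes that build the purine ring were lower. So were 3 of 4 of pyrimidine synthesis and 6 of 12 of folate supply. In deoxynucleotide synthesis only 2 of the 9 other genes were lower. The counts lower were 2 of 6 from IMP to GMP and AMP, 1 of 5 of PRPP synthesis, 1 of 7 of salvage and 2 of 6 of nucleoside transport. In nucleotide breakdown 9 of 15 genes were higher and 1 was lower.

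Library totals lay from 27050455 to 28152743 expected counts for WT and from 28314069 to 31053622 for cKO animals, and the 10 libraries split by genotype when clustered over all tested genes by average linkage on the correlation of centred log2 CPM. Arid3a, the deleted gene, was read 55 to 81 times per WT library and 9 to 31 times per cKO library, a log2 fold change of −1.84 (edgeR adjusted p = 0.00204). Markers of some other cell states moved with genotype, where 12.7% of all tested genes were called lower and 15.6% higher. All 9 enterocyte markers rose, with summed TPM (a level per transcript length, scaled to the library) of 1560 to 6372 in WT and 6730 to 12723 in cKO libraries, and 13 of 14 S phase markers fell, with sums of 1080 to 1462 in WT and 731 to 853 in cKO. Of the other lists, 3 of 10 markers of G2 and M phase, 4 of 6 of stem cells and 4 of 5 of Paneth cells fell, whereas none of the 6 goblet markers passed the threshold. The enteroendocrine markers Chga and Chgb, 2 of 6, rose, with sums over the list of 239 to 291 TPM in WT and 294 to 435 TPM in cKO libraries. Of 4 tested tuft markers 2 rose (Dclk1 and Trpm5), and of 9 stromal and muscle markers 2 fell (Acta2 and Pecam1). Of 9 immune markers 1 fell (Jchain), which is near the share of all tested genes. No marker of any list was at 0 in all libraries. In whole crypts, fewer cells that make an mRNA and less of that mRNA per cell cannot be told apart. The part of cell composition in the values of the 9 enzymes was not tested. WT replicates 3 and 4 had the lowest enterocyte sums (2212 and 1560 TPM), and WT replicate 4 had the highest S phase sum. Without these 2 animals, a choice made after the values were seen, 5 of the 9 enzymes passed the threshold (Rrm1, Tyms, Dut, Cad and Impdh2), and 4.45% of all tested genes were called lower.

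**Figure D1:**
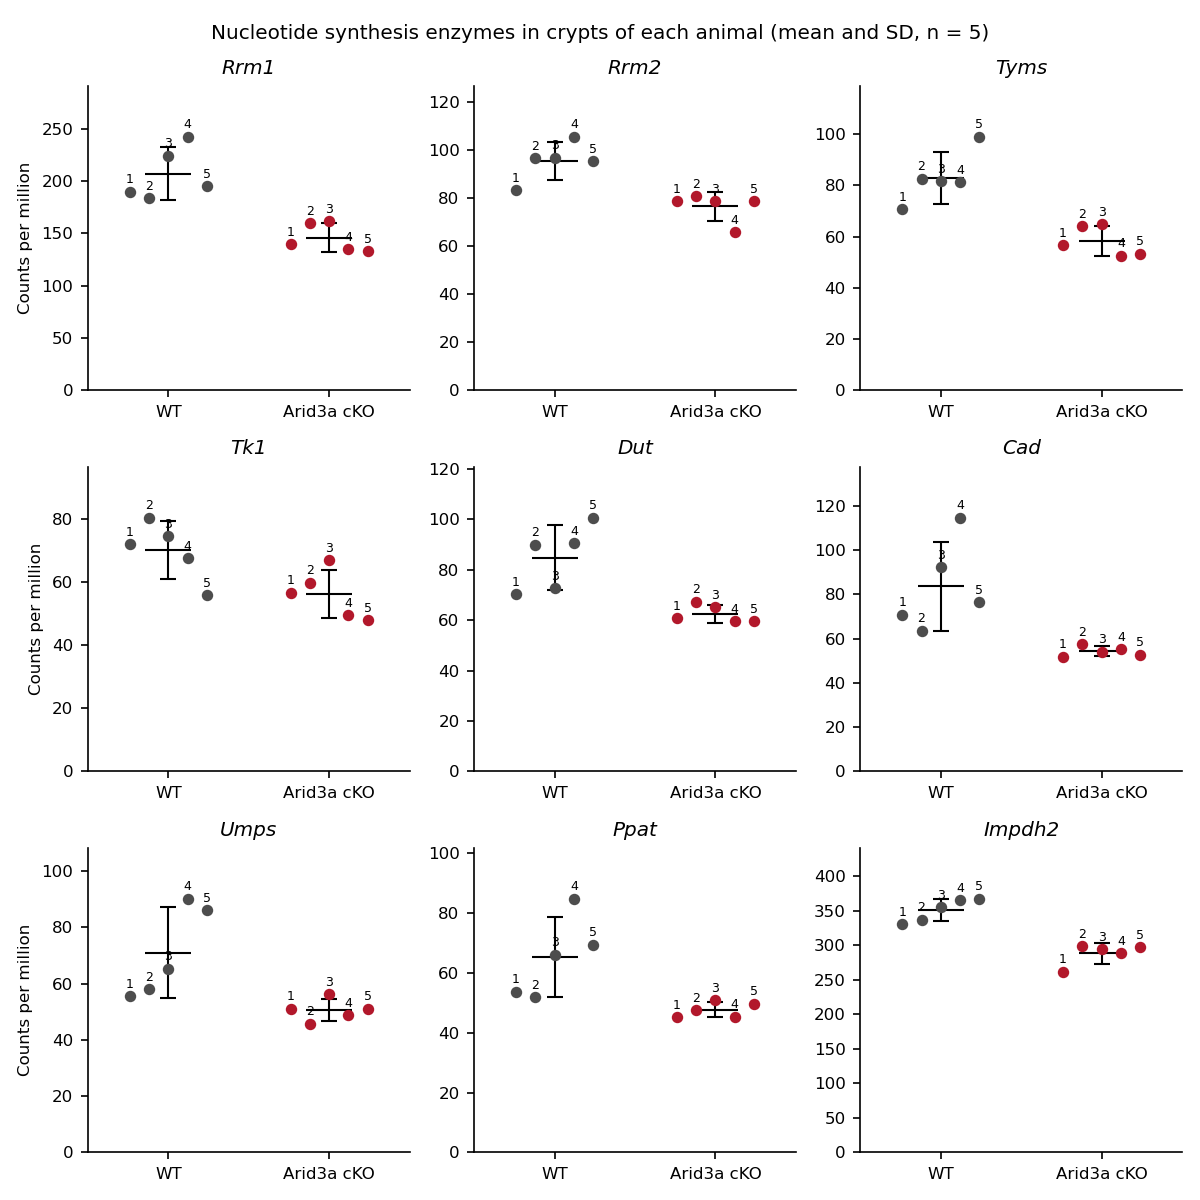
CPM (counts scaled to the TMM-normalized library size, linear axes from 0) of the 9 enzymes in each animal, numbered by replicate, with the mean and SD of 5 animals per genotype. The cKO libraries lie below the WT libraries in 7 panels, and WT replicate 5 in Tk1 and WT replicate 1 in Umps fall within the cKO range.

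Ribonucleotide reductase is built from a large catalytic subunit, encoded by Rrm1, and a small subunit that carries a radical, encoded by Rrm2 in dividing cells. Rrm1 (ENSMUSG00000030978) lies on chromosome 7 of GRCm38 from 102441695 to 102469771. It was measured at 189.7, 183, 224, 242 and 195 CPM in WT replicates 1 to 5 and at 139.6, 159.9, 162, 135 and 133 CPM in cKO replicates 1 to 5. The groups did not overlap, and the highest values belonged to WT replicates 3 and 4. Its mean CPM went down from 207 ± 25.2 to 146 ± 13.95 CPM (SD, n = 5 each), with a log2 fold change of −0.50 ± 0.092 (SE; edgeR adjusted p = 0.00289). Rrm2 (ENSMUSG00000020649), on chromosome 12 from 24708241 to 24714146, stood at 83.5, 96.8, 96.9, 106 and 95.5 CPM in WT and at 78.8, 80.9, 78.8, 65.9 and 78.8 CPM in cKO animals. Here too the groups did not overlap, but the gap was narrow, from 80.9 CPM in cKO replicate 2 to 83.5 CPM in WT replicate 1. Its log2 fold change was −0.32 ± 0.077 (SE; edgeR adjusted p = 0.00972), and without WT replicates 3 and 4 it was −0.26 (edgeR adjusted p = 0.0629). With 1 surrogate variable it was −0.29 (edgeR adjusted p = 0.0786).

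The promoters of the 2 subunits are shown because these genes encode parts of one enzyme and both moved down. Each window holds 250 bases before and 50 bases after the start in RefSeq (GRCm38.p6), whose starts can differ from those of the annotation used for counting. Windows were searched on both strands for 6 motifs. The E2F motif was searched for as TTTNNCGC. The E-box was searched for as CACGTG, the CCAAT box as the letters of its name and the GC box as GGGCGG. The cell cycle homology region had the letters TTTGAA. The AT-rich motif had the letters ATTAAA. Matches to the GC box were not marked and can overlap the marked matches. Capitals mark matches to the E2F motif, the E-box and the CCAAT box on either strand, and a match is a description of letters, not a site of binding. The window of Rrm1 (chr7:102441445-102441744, plus strand) held 2 CCAAT boxes that began 91 and 45 bases before the start, and that of Rrm2 (chr12:24708004-24708303, plus strand) held 1 that began 50 bases before it.
Rrm1: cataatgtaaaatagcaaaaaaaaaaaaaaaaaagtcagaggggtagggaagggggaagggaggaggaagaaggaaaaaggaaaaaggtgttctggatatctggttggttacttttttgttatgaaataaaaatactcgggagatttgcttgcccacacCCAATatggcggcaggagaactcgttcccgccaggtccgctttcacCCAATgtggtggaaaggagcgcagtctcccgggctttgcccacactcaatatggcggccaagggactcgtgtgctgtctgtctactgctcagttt
Rrm2: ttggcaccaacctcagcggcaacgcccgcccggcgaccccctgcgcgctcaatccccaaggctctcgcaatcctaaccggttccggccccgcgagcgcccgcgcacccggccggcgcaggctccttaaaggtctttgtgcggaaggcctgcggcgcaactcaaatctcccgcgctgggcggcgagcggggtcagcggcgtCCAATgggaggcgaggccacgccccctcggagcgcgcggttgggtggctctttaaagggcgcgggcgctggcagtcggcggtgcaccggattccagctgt
The base composition of the windows differed, with 47.0% G and C in Rrm1 and 71.3% in Rrm2, where the median of all windows was 52.7%. Among all 32851 promoter windows, 37.4% held a CCAAT box. No GC box was found in the Rrm1 window, whereas the other 8 enzymes each held at least 1, as did 35.7% of all windows. Of other genes of nucleotide metabolism with a window, 16 of 20 lower and 10 of 13 higher genes also held a GC box.

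Thymidylate synthase (Tyms) makes dTMP from dUMP with a folate as methyl donor, dUTPase (Dut) supplies that dUMP by splitting dUTP, and thymidine kinase 1 (Tk1) makes dTMP from thymidine that is already formed. Tyms (ENSMUSG00000025747), on chromosome 5 from 30058202 to 30073617, stood at 70.6, 82.5, 81.7, 81.2 and 98.9 CPM in WT and at 56.7, 64.2, 64.8, 52.5 and 53.3 CPM in cKO replicates 1 to 5. All 5 cKO values lay under the lowest WT value. The log2 fold change was −0.51 ± 0.094 (SE; edgeR adjusted p = 0.00299), which is 0.703 times the WT level. Dut (ENSMUSG00000027203), on chromosome 2 from 125247190 to 125258608, was measured at 70.4, 89.9, 72.6, 90.6 and 101 CPM in WT and at 60.7, 67.3, 65.2, 59.6 and 59.6 CPM in cKO animals. These groups also lay apart, and the WT values were more spread (SD 12.9) than the cKO values (SD 3.57). The log2 fold change of Dut was −0.44 ± 0.097 (SE; edgeR adjusted p = 0.00676).

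Tk1 was the enzyme with the least stable call. It (ENSMUSG00000025574) lies on chromosome 11 from 117815526 to 117826092 and stood at 72.0, 80.3, 74.4, 67.5 and 55.9 CPM in WT and at 56.6, 59.8, 66.9, 49.6 and 48.0 CPM in cKO replicates 1 to 5. WT replicate 5, which had the highest Tyms and Dut values of all libraries, had the lowest Tk1 value of the WT group and lay below 3 cKO libraries. The log2 fold change of −0.32 ± 0.11 (SE) passed with an edgeR adjusted p of 0.0476, and 8 of the 10 fits that left out 1 animal raised it above 0.05, with log2 fold changes between −0.39 and −0.26 over the 10 and a highest adjusted p of 0.118. It stayed below 0.05 without WT replicate 5 and without cKO replicate 3, and rose to 0.0942 with 1 surrogate variable in edgeR. Tk1 overlaps Afmid on the opposite strand (116 to 248 counts per library, where Tk1 had 1269 to 2335), and the strand setting of the counting is not given in the sources used here.

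The Tyms window (chr5:30073576-30073875, minus strand) is shown because it was one of only 2 windows of the 9 enzymes with an E2F motif, which 5.17% of all promoter windows held. Its E2F match began 41 bases after the start and its E-box 61 bases before it. E-boxes were found in 7.15% of all windows.
Tyms: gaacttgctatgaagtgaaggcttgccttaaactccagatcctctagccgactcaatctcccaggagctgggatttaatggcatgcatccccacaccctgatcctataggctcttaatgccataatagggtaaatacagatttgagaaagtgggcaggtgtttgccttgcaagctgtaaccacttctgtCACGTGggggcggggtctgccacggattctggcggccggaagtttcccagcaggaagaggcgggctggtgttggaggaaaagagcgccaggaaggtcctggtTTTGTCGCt
The windows of Tk1 and Dut held a GC box each and none of the 3 marked motifs. The Dut window (chr2:125247265-125247564, plus strand) lies wholly inside the gene as placed above, from 125247190. It therefore holds no bases before that start.

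Pyrimidine rings are assembled by CAD, a single protein with the activities of the first steps, by dihydroorotate dehydrogenase (Dhodh) and by UMP synthase (Umps), which completes the pathway. Cad (ENSMUSG00000013629), on chromosome 5 from 31054780 to 31078479, had the largest change of the 9 enzymes on the log2 scale with all animals in the fit, but not without WT replicate 4. It stood at 70.8, 63.6, 92.2, 115 and 76.6 CPM in WT and at 51.9, 57.5, 54.1, 55.1 and 52.7 CPM in cKO replicates 1 to 5. The WT values ranged widely (83.5 ± 20.3 CPM, SD) and the cKO values lay close together (54.3 ± 2.22 CPM, SD), with no overlap. The log2 fold change was −0.62 ± 0.14 (SE; edgeR adjusted p = 0.00668). WT replicate 4 weighed on its size, since the log2 fold change was −0.48 without this animal (Tyms −0.52) and −0.37 without WT replicates 3 and 4 (edgeR adjusted p = 0.0127). With 1 surrogate variable it was −0.30 (edgeR adjusted p = 0.0646), where Tyms had −0.50. Umps (ENSMUSG00000022814), on chromosome 16 from 33954782 to 33967038, stood at 55.4, 58.0, 65.3, 90.2 and 86.2 CPM in WT and at 51.1, 45.8, 56.2, 48.8 and 51.1 CPM in cKO animals. WT replicates 4 and 5 were well above the other WT animals, and WT replicate 1 lay below cKO replicate 3. The log2 fold change of Umps was −0.49 ± 0.13 (SE; edgeR adjusted p = 0.0181), and −0.39 without WT replicates 3 and 4 (edgeR adjusted p = 0.0781). It was −0.28 with 1 surrogate variable (edgeR adjusted p = 0.241).

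Ppat encodes the amidotransferase that commits PRPP, the activated ribose, to purine synthesis, and Impdh2 encodes the IMP dehydrogenase that turns IMP toward GMP and is the isoform known from proliferating cells. Ppat (ENSMUSG00000029246), on chromosome 5 from 76913249 to 76951578, was measured at 53.6, 51.9, 66.0, 84.7 and 69.4 CPM in WT and at 45.1, 47.6, 50.8, 45.3 and 49.7 CPM in cKO replicates 1 to 5. The highest cKO library lay just under the lowest WT library. The log2 fold change was −0.45 ± 0.12 (SE; edgeR adjusted p = 0.0153), and −0.29 without WT replicates 3 and 4 (edgeR adjusted p = 0.0757). The value was −0.21 with 1 surrogate variable (edgeR adjusted p = 0.256). Impdh2 (ENSMUSG00000062867), on chromosome 9 from 108560286 to 108565584, stood at 331, 337, 355, 365 and 367 CPM in WT and at 262, 298, 294, 289 and 297 CPM in cKO animals. It was the most abundant of the 9 and its groups did not overlap. Its log2 fold change of −0.29 ± 0.062 (SE; edgeR adjusted p = 0.00641) was the smallest of the 9 in this fit, and it was −0.23 with 1 surrogate variable (edgeR adjusted p = 0.0646). A processed pseudogene, Impdh2-ps, is 99.7% identical to it over 1545 bases. This copy was assigned 56.7 to 182 counts per library, where Impdh2 had 7775 to 10895. Impdh2 also overlaps Ndufaf3 on the opposite strand (285 to 383 counts per library).

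The Ppat window (chr5:76951529-76951828, minus strand) is shown because it held 2 E2F matches, which began 211 and 158 bases before the start. The gene overlaps the 5′ end of Paics, another purine synthesis gene on the opposite strand, by 272 bases, so the window also lies within Paics. Paics had 2939 to 4240 counts per library, where Ppat had 1292 to 2531, and the strand setting of the counting is not given. The Impdh2 window (chr9:108560186-108560485, plus strand) held the other E-box, beginning 110 bases before the start, and a CCAAT box beginning 7 bases after it on the opposite strand.
Ppat: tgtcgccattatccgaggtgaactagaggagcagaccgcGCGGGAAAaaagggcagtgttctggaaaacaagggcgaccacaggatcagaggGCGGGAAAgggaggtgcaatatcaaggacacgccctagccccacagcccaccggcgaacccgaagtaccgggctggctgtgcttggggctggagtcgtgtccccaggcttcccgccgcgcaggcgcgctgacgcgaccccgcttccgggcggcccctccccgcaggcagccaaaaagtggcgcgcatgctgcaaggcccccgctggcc
Impdh2: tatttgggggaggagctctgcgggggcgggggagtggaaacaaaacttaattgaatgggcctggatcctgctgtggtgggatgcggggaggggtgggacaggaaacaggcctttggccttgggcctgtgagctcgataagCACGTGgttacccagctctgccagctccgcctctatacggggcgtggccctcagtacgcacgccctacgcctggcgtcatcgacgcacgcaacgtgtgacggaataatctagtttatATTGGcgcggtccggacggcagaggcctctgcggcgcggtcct
The windows of Cad and Umps held none of the 3 marked motifs. Of the other genes of the pathway lists that were lower in cKO crypts, 1 of 20 with a window held an E2F motif, 4 an E-box and 13 a CCAAT box, and of the 13 higher genes with a window 0, 0 and 5 did. The cell cycle homology region was found in Umps and the AT-rich motif in Tyms, against 17.9% and 13.9% of all windows.

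Levels of different genes were compared in TPM, as deposited and without scaling between libraries. In WT crypts Impdh2 was highest at 273 ± 20.5 TPM (SD, n = 5), followed by Tyms at 126 ± 10.7 and Dut at 111 ± 14.3 TPM. The ranges of Tyms and Dut overlapped. Rrm1, Tk1 and Rrm2 came next at 76.8 ± 9.81, 71.4 ± 11.3 and 70.5 ± 9.92 TPM, and their ranges overlapped each other. Umps, Ppat and Cad were lowest at 27.3 ± 6.53, 26.96 ± 6.91 and 19.1 ± 7.99 TPM, again with overlapping ranges. In cKO crypts the means were 206 TPM for Impdh2, 81.7 for Tyms, 76.9 for Dut, 51.3 for Tk1, 51.2 for Rrm2, 49.96 for Rrm1, 18.2 for Umps, 17.9 for Ppat and 11.03 for Cad. The broad order was as in WT, and the ranges of Tyms and Dut, of Tk1, Rrm2 and Rrm1, and of Umps and Ppat again overlapped within each set. Cad was the exception, with 10.5 to 11.6 TPM in cKO crypts, below the 16.8 to 19.4 TPM of Ppat.

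**Figure D2:**
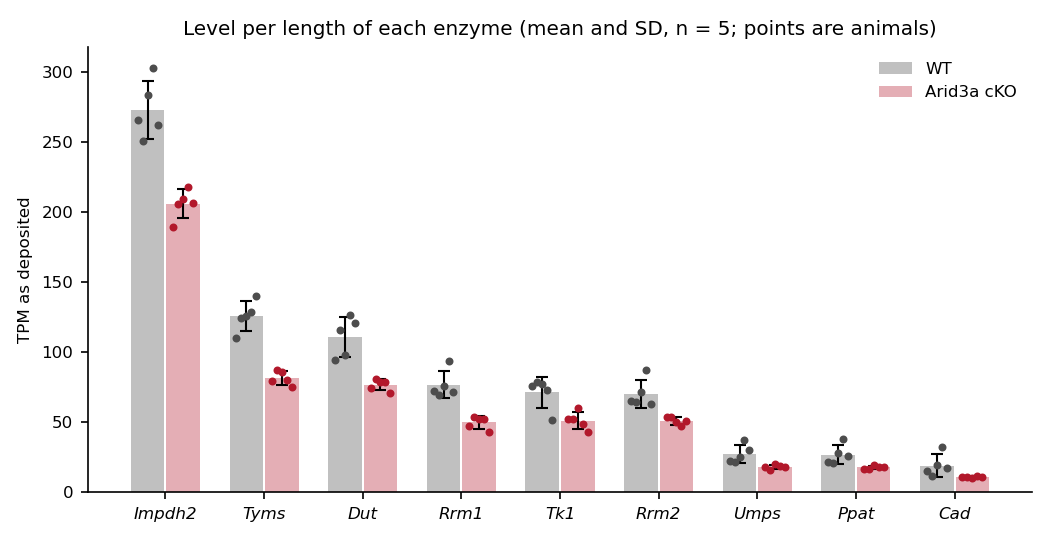
TPM as deposited (linear axis from 0) of the 9 enzymes, ordered by the WT mean, with bars for the mean, error bars for the SD and points for the 5 animals of each genotype. Impdh2 stands highest at 273 TPM in WT and 206 TPM in cKO crypts, and Cad lowest at 19.1 and 11.03 TPM.

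The 9 enzymes did not vary as a block among the animals of 1 genotype. WT replicate 4 lay above the WT mean in 7 of the 9, by up to 0.49 on the log2 scale in Cad, and the exceptions were Tyms and Tk1. WT replicate 1 lay below the WT mean in all but Tk1. WT replicate 5 was 0.26 above the mean in both Tyms and Dut, 0.31 above it in Umps and 0.31 below it in Tk1. Among the cKO animals, replicate 3 was above the cKO mean in 8 of the 9 and replicate 4 above it in 2. The deviations of the pyrimidine and purine enzymes Cad, Umps and Ppat in cKO animals stayed between −0.14 and 0.15, whereas in WT animals they ran from −0.36 to 0.49.

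**Figure D3:**
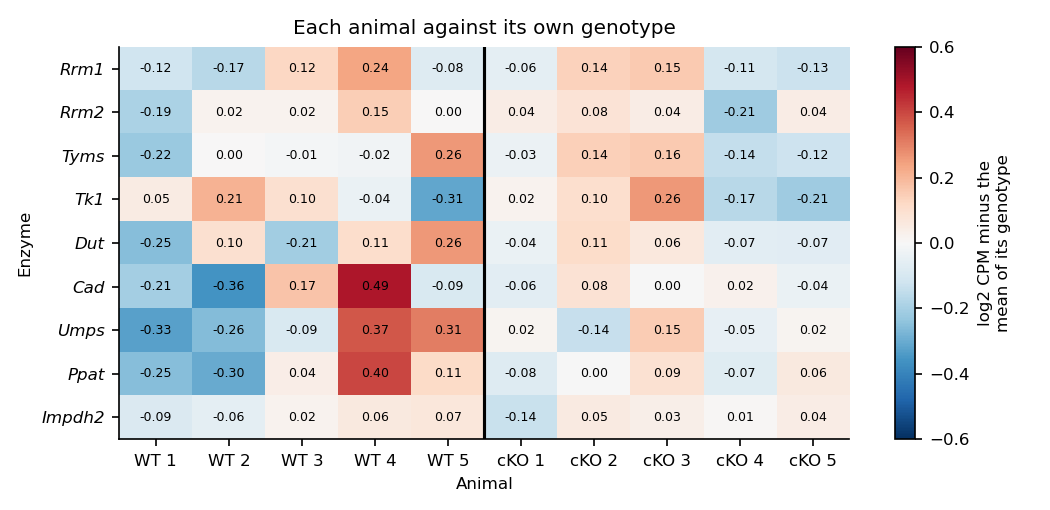
Log2 CPM of each enzyme in each animal minus the mean of its genotype, as numbers and on a colour scale from −0.6 (blue) to 0.6 (red). WT replicate 4 stands out in Cad (0.49), Umps (0.37) and Ppat (0.40), and Tk1 is lowest in WT replicate 5 (−0.31).

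Ratios between enzymes within a library do not depend on library scaling. For 8 ratios between subunits, isoforms and enzymes of adjacent steps, CPM values were compared by two-sided exact permutation tests over 252 assignments, where the smallest possible p is 0.00794. A single ratio at that p has an adjusted p of 0.0635 over the 8, so that 1 ratio alone could not pass 0.05. None passed after Benjamini-Hochberg adjustment, and 1 did before it. The ratio of Rrm2b, the small subunit known from p53 responses and resting cells, to Rrm2 was 0.0504, 0.0405, 0.0465, 0.0298 and 0.0301 in WT and 0.0611, 0.0629, 0.0537, 0.0665 and 0.0538 in cKO animals. All cKO ratios lay above all WT ratios, the difference of mean log2 ratios was 0.62 (95% interval 0.24 to 1.06), and p was 0.00794 in the exact permutation test (adjusted p = 0.0635). The Rrm2b mRNA on its own was at 3.73 ± 0.699 CPM in WT animals and at 4.55 ± 0.383 CPM in cKO animals (SD, n = 5). Its edgeR adjusted p was 0.172. In TPM as deposited, Rrm2b was at 1.85 ± 0.511 in WT and at 1.82 ± 0.284 in cKO animals (SD). The ratio of Rrm2 to Rrm1 had medians of 0.440 in WT and 0.506 in cKO animals, a log2 difference of 0.18 (95% interval −0.03 to 0.40, exact permutation p = 0.0714, adjusted p = 0.286). The log2 differences of the other 6 ratios were 0.31 for Tk2 (the mitochondrial thymidine kinase) to Tk1, 0.19 for Tk1 to Tyms, 0.08 for Dut to Tyms, −0.13 for Cad to Umps, −0.17 for Impdh1 to Impdh2 and 0.18 for Ctps2 to Ctps. Their exact permutation p-values lay between 0.119 and 0.389 before adjustment, and the widest 95% interval, that of Tk2 to Tk1, ran from −0.11 to 0.78.

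Each enzyme was also set against the geometric mean of the 14 S phase markers of the same library, a comparison added after the values were seen. The log2 difference of this ratio between cKO and WT was −0.01 for Rrm1 (95% interval −0.13 to 0.10), −0.02 for Tyms (−0.24 to 0.17) and 0.06 for Dut (−0.18 to 0.27). It was 0.17 for Rrm2 (−0.01 to 0.32) and 0.17 for Tk1 (−0.14 to 0.52). The intervals of all 5 deoxynucleotide enzymes included 0. Cad, Umps and Ppat differed by −0.10, 0.03 and 0.06. Impdh2 was the only one of the 9 without overlap. Its ratio lay from 2.86 to 3.27 in WT and from 3.36 to 3.995 in cKO animals, a log2 difference of 0.20 (95% interval 0.07 to 0.35, exact permutation p = 0.00794, adjusted p = 0.0714 over 9 ratios, the smallest that 1 ratio alone can reach). Pcna, the sliding clamp of replication and one of the markers, had a log2 fold change of −0.38 (edgeR adjusted p = 0.00404), and Mki67, a general marker of cycling cells, had −0.19 (edgeR adjusted p = 0.172).

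**Figure D4:**
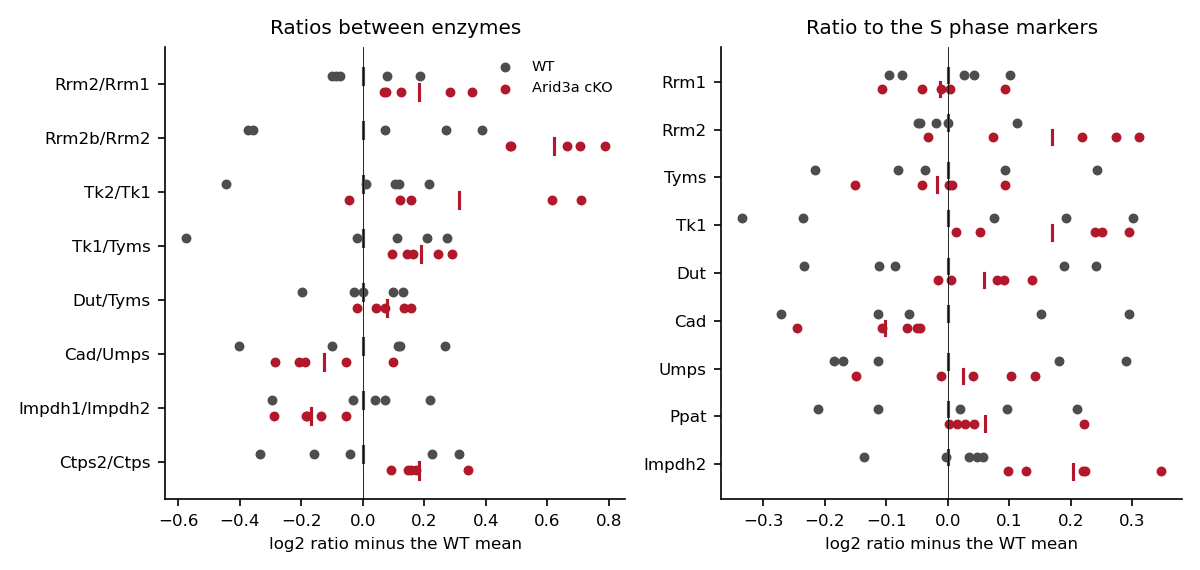
Log2 ratios per animal, minus the WT mean, for 8 ratios between enzymes (left) and for the 9 enzymes relative to the geometric mean of 14 S phase markers (right), with grey points for WT, red points for cKO and short lines for group means. The groups are separated for Rrm2b to Rrm2 (difference 0.62) and for Impdh2 to the S phase markers (difference 0.20), and overlap in the other rows.

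The other genes of nucleotide metabolism were taken from 9 lists by role that hold 80 genes with the 9 enzymes. These lists, too, were chosen with earlier results of these data known. Of the 69 tested genes outside the 9, 23 were lower (33.3%) and 14 higher (20.3%), beside 12.7% and 15.6% of all tested genes. In the fit with 1 surrogate variable 6 were lower (8.7%) and 8 higher (11.6%), beside 1.87% and 6.94% of all tested genes. Over all 78 tested genes of the lists, 32 were lower and 14 higher. Scaling by library size alone, which shifts the median of all genes to −0.16, gave 41 and 10, and 4030 lower and 1544 higher genes in the whole table.

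Of the 9 genes of deoxynucleotide synthesis outside the 5 enzymes above, 2 fell, beside 12.7% of all tested genes. With those 5, 7 of 14 genes fell and none rose. Apart from the 5 enzymes above these were Dctd, the dCMP deaminase that feeds dUMP to TYMS, at 48.7 ± 10.1 CPM in WT animals and at 30.0 ± 2.45 CPM in cKO animals (SD, n = 5; log2 fold change −0.70, edgeR adjusted p = 0.00282), and Dtymk, which phosphorylates dTMP (−0.42, edgeR adjusted p = 0.00626). The deoxynucleoside kinases Dck and Dguok and the kinases Nme1 and Nme2, with Tk2 and Rrm2b, did not pass the threshold. Their log2 fold changes lay between −0.26 and 0.29. Dctd also passed with 1 surrogate variable, whereas Dtymk did not.

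The mRNAs of de novo synthesis of both kinds of ring were mostly lower. All 6 genes that build the purine ring fell, with log2 fold changes of −0.50 for Gart, −0.47 for Atic, −0.45 for Ppat, −0.38 for Adsl, −0.36 for Pfas and −0.29 for Paics. Gart, a protein with several of the activities, stood at 157 ± 23.7 CPM in WT animals and at 111 ± 4.12 CPM in cKO animals (edgeR adjusted p = 0.00291), whereas the call of Pfas was lost in 4 of the 10 fits without 1 animal. With 1 surrogate variable Gart and Atic passed the threshold and the other 4 did not. In pyrimidine synthesis Dhodh (−0.41) and the CTP synthases Ctps (−0.44) and Ctps2 (−0.24) fell with Cad and Umps, although none of these 5 passed with 1 surrogate variable. Cmpk1, the kinase that phosphorylates UMP and CMP, rose instead, from 139 ± 11.8 to 211 ± 17.4 CPM (SD, n = 5; log2 fold change 0.60, edgeR adjusted p = 0.000702), and its groups did not overlap. Beyond IMP, Impdh1 (−0.47) and Gmps (−0.25), which lead to GMP, fell with Impdh2, and Adss, the first step toward AMP, rose by 0.27 on the log2 scale (edgeR adjusted p = 0.00970). The Gmps call, with an edgeR adjusted p of 0.0469, was lost in 6 of the 10 fits without 1 animal. The Adss call was lost in 4 of 24 alternatives, which were scaling by library size alone and the limma fits on TPM. Adss also passed with 1 surrogate variable, whereas Impdh1, Impdh2 and Gmps did not.

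The precursors of these pathways come from PRPP synthetases and folate enzymes. Of 5 genes of PRPP synthesis 1 fell (Prps1l3, log2 fold change −0.33, edgeR adjusted p = 0.0497, lost in 9 of 10 fits without 1 animal) and 1 rose (Prpsap1, 0.48), while Prps1 (−0.05) and Prps2 (−0.27) did not pass the threshold. Neither Prps1l3 nor Prpsap1 passed with 1 surrogate variable. Of 12 tested folate genes 6 fell. Among them were the serine hydroxymethyltransferases Shmt1 (−0.46) and Shmt2 (−0.57) and the folate-retaining enzyme Fpgs (−0.60). The others were the one-carbon enzymes Mthfd1 (−0.43), Mthfd2 (−0.64) and Mthfd1l (−0.67). With 1 surrogate variable Shmt1 and Shmt2 passed the threshold, whereas Mthfd1, Mthfd2, Mthfd1l and Fpgs did not. Aldh1l1, which removes one-carbon units by oxidising formyl folate, rose from 47.4 ± 11.2 to 76.6 ± 8.13 CPM (SD, n = 5; log2 fold change 0.69, edgeR adjusted p = 0.00528). Of 7 salvage genes only Uck2, a uridine and cytidine kinase, passed the threshold (log2 fold change −0.33, edgeR adjusted p = 0.0103). Uck2 did not pass with 1 surrogate variable. Hprt, Aprt, Adk, Uck1, Uckl1 and Uprt had log2 fold changes between −0.0026 and 0.19.

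Most of the genes that rose were breakdown enzymes, which held 9 of the 14. Of the 15 tested genes of that list 9 rose and 1 fell, with a median log2 fold change of 0.58. The pyrimidine nucleoside enzymes Tymp (2.26), Upp1 (1.07) and Cda (1.03), the pyrimidine-degrading enzymes Dpyd (0.76) and Upb1 (0.55), the purine enzymes Gda (2.10), Xdh (1.69) and Ada (1.15), and the dNTP hydrolase Samhd1 (0.44) were higher in cKO crypts. Xdh, the last step to uric acid, went from 103 ± 45.9 to 332 ± 76.6 CPM (SD, n = 5; edgeR adjusted p = 0.00603) with no overlap between the groups, while Ada and Upb1 overlapped and lost their calls in 7 of 10 fits without 1 animal each. Dctpp1, which hydrolyses dCTP and modified forms of it, was the gene that fell (−0.38). With 1 surrogate variable Tymp, Cda, Dpyd, Gda and Xdh passed the threshold, whereas Upp1, Upb1, Ada, Samhd1 and Dctpp1 did not. Of 6 nucleoside transporters the equilibrative carriers Slc29a1 (−0.47) and Slc29a2 (−0.81) fell. The concentrative carrier Slc28a1 rose (1.71, edgeR adjusted p = 0.0327, lost in 5 of 10 fits without 1 animal). Slc29a1 also passed with 1 surrogate variable, whereas Slc29a2 and Slc28a1 did not. The enterocyte marker sums above were higher in the same libraries in which the breakdown genes were higher, and the part of enterocytes in these values was not tested.

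**Figure D5:**
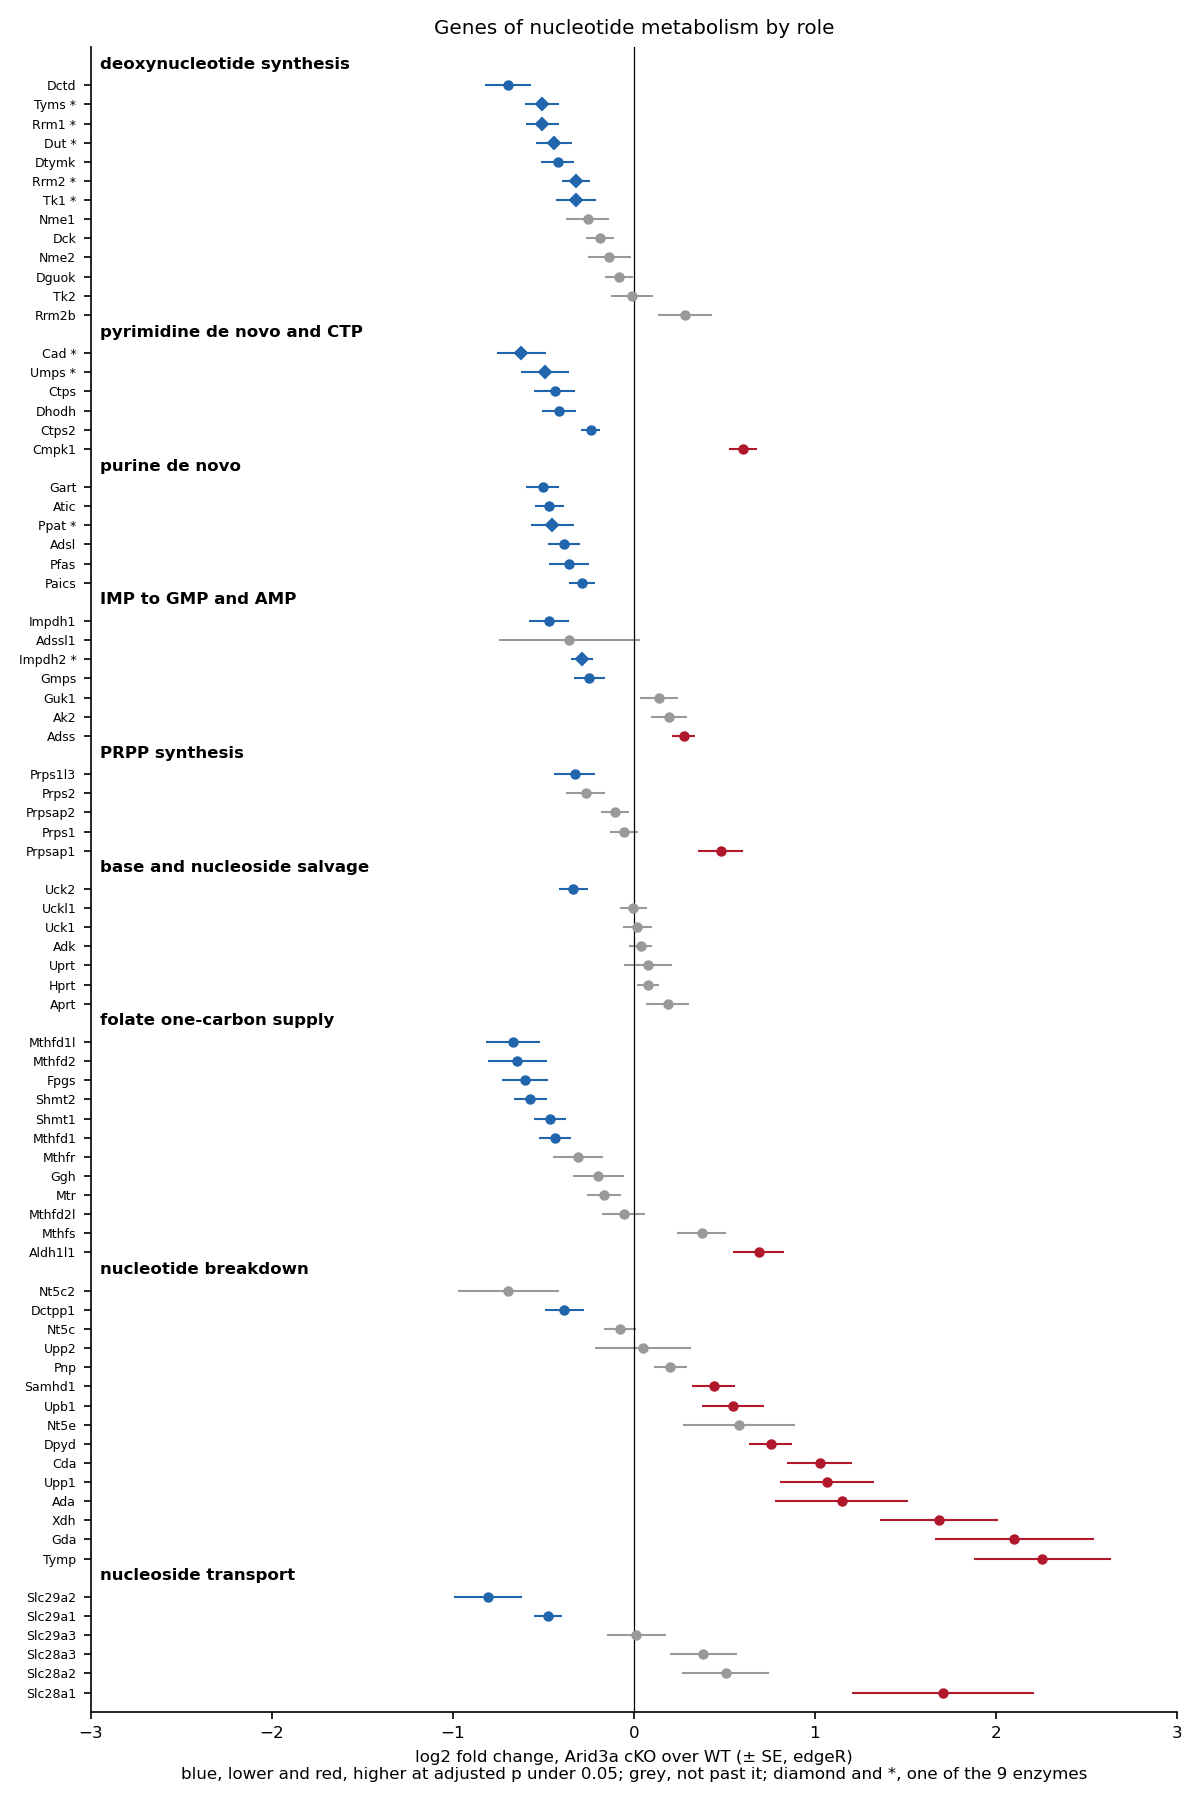
Log2 fold change of Arid3a cKO over WT with its SE for 77 genes in 9 roles (edgeR), with blue for lower and red for higher at an adjusted p of 0.05 and grey for neither. The 9 enzymes (diamonds) lie to the left of 0, as do all 6 genes of purine synthesis, and 9 of 15 breakdown genes are red and lie to the right.

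The genes whose profiles over the 10 libraries came closest to the members were found by the root mean square difference of centred log2 CPM among 11957 genes. For the mean of the 5 deoxynucleotide enzymes these were Naa40 (a histone acetyltransferase), Prpf31 (a splicing factor), Nup62 (a nucleoporin), Fbl (fibrillarin, a nucleolar methyltransferase) and Haus8 (a spindle protein), with differences of 0.048 to 0.056 against a median of 0.28 over all genes. For the mean of Cad, Umps, Ppat and Impdh2 they were Pus7 (a pseudouridine synthase), Gart, Utp15 (a ribosome assembly factor), Xpo5 (a nuclear export receptor) and Ctps, with differences of 0.043 to 0.053 against a median of 0.31. Gart and Ctps belong to the pathway lists above, and the other 8 genes do not. The closest match to a mean profile need not be close to each member, and Tk1 differed by 0.16 from the mean of its own group.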

How the data were processed

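RNA of jejunal crypts from 5 WT and 5 Arid3a cKO mice (KO in the sample labels, which gave genotype and replicate number) was sequenced from polyA KAPA mRNA HyperPrep libraries with a RIN cut-off of 7. Per the labels and the study's methods, the authors ran nf-core/rnaseq version 3.0 with STAR and RSEM against Ensembl release 95 of GRCm38, and deposited an expected count and a TPM per gene and library, unscaled between libraries. RSEM divides reads shared by similar genes. The strand setting is not given in the sources used here.

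Symbols came from GENCODE release M21. Expected counts were rounded and tested in R 4.3.3 with edgeR 4.0.16 (filterByExpr, minimum count 10, TMM, robust quasi-likelihood test, Benjamini-Hochberg threshold 0.05), with genotype as the only term, since time has 1 level here. CPM values use TMM-scaled library sizes. Library totals before this scaling give 27.1 to 31.1 counts at 1 CPM, and the TMM factors lay from 0.934 (cKO replicate 5) to 1.08 (WT replicate 4). Ratios were compared by two-sided exact permutation tests. Promoter windows came from RefSeq (GRCm38.p6), in which all 9 enzymes matched by symbol, and copies from BLAST 2.17.0 (95% identity or more over 80% or more of the copy).

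1 gene of the lists is counted but not reported here. The 9 members and the lists were chosen with earlier results of these data known. Named genes were the members, Arid3a, Pcna and Mki67, the pathway genes past the threshold or used in a ratio or needed to account for a list, and the 5 genes most like the members of each kind (mean of at least 50 counts, pseudocount of 0.5 CPM). Alternatives were DESeq2 1.42.0, limma-voom 3.58.1, unrounded counts, RLE factors, no factors, no filter, a minimum of 10 counts in all samples, an offset for effective length, limma on log2(TPM + 1) and log2(TPM + 0.1), a replicate block, 1 surrogate variable (sva 3.50.0) and leaving out each animal. Leaving out WT replicates 3 and 4 together and the ratios to S phase markers were added after the data were seen. No 2 libraries of 1 genotype agreed within sampling noise, and pairs across the genotypes were not compared. p-values set the difference between genotypes against the spread among the animals of each genotype. They do not cover a difference tied to the separate series of animals. The edgeR fit was tested on simulated data.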

Additional observations from a re-analysis of the deposited data

Results flagged for a closer look

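In 132 groups of 5 libraries (the CPM of the 9 enzymes, of Arid3a, Pcna and Mki67 and of the pathway genes past the threshold, and all ratios, in each genotype), 7 had 1 library whose gap to its nearest neighbour exceeded 0.71 of the whole range. Chance alone flags about 1 in 20 such groups, and the 7 are in that range. Among the cKO animals, Rrm2 was lowest in replicate 4 at 65.9 CPM, where the next library had 78.8 CPM. Impdh2 was lowest in cKO replicate 1 at 262 CPM, with the next at 289 CPM. Dctd and Dctpp1 were highest in cKO replicate 3 at 34.3 and 39.0 CPM, with 29.9 and 34.96 CPM next. Upp1 was highest in cKO replicate 1 at 68.1 CPM, above 45.7 CPM, and the ratio of Ppat to the S phase markers was highest in cKO replicate 5 at 0.669, above 0.591. In WT animals, Slc29a1 was highest in replicate 4 at 47.1 CPM, above 38.3 CPM.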

How the results depend on the processing

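The log2 fold changes of the 9 enzymes kept their sign under all 24 alternatives to the edgeR fit. Leaving out 1 animal gave 8 to 9 enzymes past the threshold, 39 to 49 pathway genes and 3007 (without WT replicate 4) to 4684 of all tested genes. With 1 surrogate variable 3 enzymes passed (Rrm1, Tyms and Dut), with 17 pathway genes (9 lower, 8 higher) and 1296 of all tested genes (275 lower, 1021 higher). Without WT replicates 3 and 4, chosen after the data were seen, 5 enzymes, 29 pathway genes and 2142 of all tested genes (670 lower) passed. The cause of these drops was not tested. The last fit also had 2 animals fewer, and no other pair of animals was left out. Tk1 was no longer past the threshold in 12 of 24 alternatives, Rrm2, Cad, Umps and Ppat in 2 each and Impdh2 in 1, and Rrm1, Tyms and Dut in none. TPM as deposited moved the median of all genes to −0.11 and the calls to 2757 lower and 1398 higher. Replicate numbers did not pair the animals (correlations of same-numbered deviations −0.16 to 0.13, with 0 of 5 highest for their own number), and the fit with the replicate block gave 9 enzymes, 39 pathway genes and 3048 of all tested genes. Of the ratios to S phase markers, those close to 0 changed sign. In TPM, that of Rrm1 was 0.0088 and that of Tyms 0.0023. Leaving out 1 animal moved that of Rrm1 between −0.039 and 0.012, that of Tyms between −0.072 and 0.043 and that of Umps between −0.021 and 0.097.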
